A study of Oryza sativa Japonica Group with 8 samples.

Results

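Crowded spans are stretches of the rice genome to which the deposited expression table assigns at least 5 loci at once. The table gives every locus a position, and a locus was taken as crowded when its position was listed for 5 or more loci. This rule used positions and no expression value. It found 1758 loci in 154 spans, which is 5.64% of the 31187 loci and 154 of the 24920 positions of the table. Of these loci, 404 lay in 73 spans of 5 to 7 loci and 1354 in 81 spans of 8 or more, with up to 45 loci in a span. A crowded span is thus a stretch that holds its loci and does not give the limits of any of them. At the edge of the rule, 40 spans held 5 loci, with a median length of 16.7 kb and a median highest level of 8.74 FPKM. The 115 spans with 4 loci, just outside, had medians of 11.5 kb and 6.06 FPKM. FPKM, the authors' unit, counts sequenced fragments per length of a transcript and per number of fragments mapped.

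The study profiled poly(A) RNA from greenhouse-grown rice of the japonica subspecies (Oryza sativa) in 8 non-directional paired-end libraries, with 1 library in each group. The groups were flower buds taken before flowering, flowers taken on the flowering day, flag leaves and roots each taken before and after flowering, milk grains (grains at the stage of milky filling) and mature seeds. The before-flowering leaf and root material mixed stages from panicle initiation up to the eve of flowering, and the after-flowering material mixed later stages. The libraries before flowering are called earlier leaves and earlier roots below, and the leaf library after flowering later leaves. A cultivar, a genotype and a treatment are not given in the labels. Every difference below is therefore between libraries and has no replicate error. The read depth behind the FPKM values is unknown, so no counting interval can be given. Fewer cells of a type and less RNA per cell cannot be told apart in whole organs. Coordinates follow Release 7 of the MSU rice annotation, per the file header. The loci carry assembly identifiers and no gene names, so the labelled organs were not checked against marker genes and no locus is described here by its product.

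As background, neighbouring genes in plant genomes mostly have promoters of their own and can be active in different organs. Some neighbours do share a pattern, as in tandem copies of a gene, in the biosynthetic clusters known from rice and other plants, or where transcripts overlap or read into each other. Transcript assemblers join reads into loci, and a gene that is assembled in pieces appears as several loci close together. Libraries that do not record the strand cannot assign reads where genes on opposite strands overlap.

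The library labelled roots after flowering stood apart from its label. Over the crowded loci its Pearson r on log2(FPKM + 1) was 0.984 with later leaves, 0.891 with earlier leaves and 0.666 with earlier roots, across loci that are not independent. Over all loci these coefficients were 0.987, 0.933 and 0.646. It is called the later library labelled roots below, and the organ in which a locus peaks was taken from the other 7 libraries.

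In 2 crowded spans, every locus was listed at 0 in the same libraries. The first, chr12:27060107-27350696, held 40 loci over 290.6 kb, and all 40 were listed at 0 in later leaves, in earlier roots and in the later library labelled roots. In its other 5 libraries, 10 of 200 values were 0. The summed level of the span was 5992 FPKM in flower buds, 6032 in flowers, 4781 in earlier leaves, 3421 in milk grains and 5158 in mature seeds. Those sums were between 0.560% and 1.02% of all FPKM of the library. The locus XLOC_019304 carried most of it, with 5548 FPKM in flower buds, 5490 in flowers, 4494 in earlier leaves, 4918 in mature seeds and 2967 in milk grains. It was the crowded locus with the highest level in those 5 libraries, and it was listed at 0 in the other 3. At least 1 FPKM was reached by 38 of the 40 loci in flower buds, 35 in flowers, 23 in earlier leaves, 19 in milk grains and 26 in mature seeds.

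The second such span, chr11:21925865-22202952, held 17 loci over 277.1 kb. All 17 were listed at 0 in milk grains and in mature seeds. In the other 6 libraries, 6 of its 102 values were 0, and the summed level lay between 112.6 and 204.1 FPKM. Positions at 0 throughout a library, with at least 10 FPKM summed in another, were found at 31 of 3200 positions of 2 loci, at 3 of 674 positions of 3 or 4 loci and at these 2 of 154 crowded spans. Whether such zeros are failed estimates or absent transcripts was not tested. A locus there is given as listed at 0, and the counts and shares that these 57 loci move most are given with and without them.

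**Figure D1:**
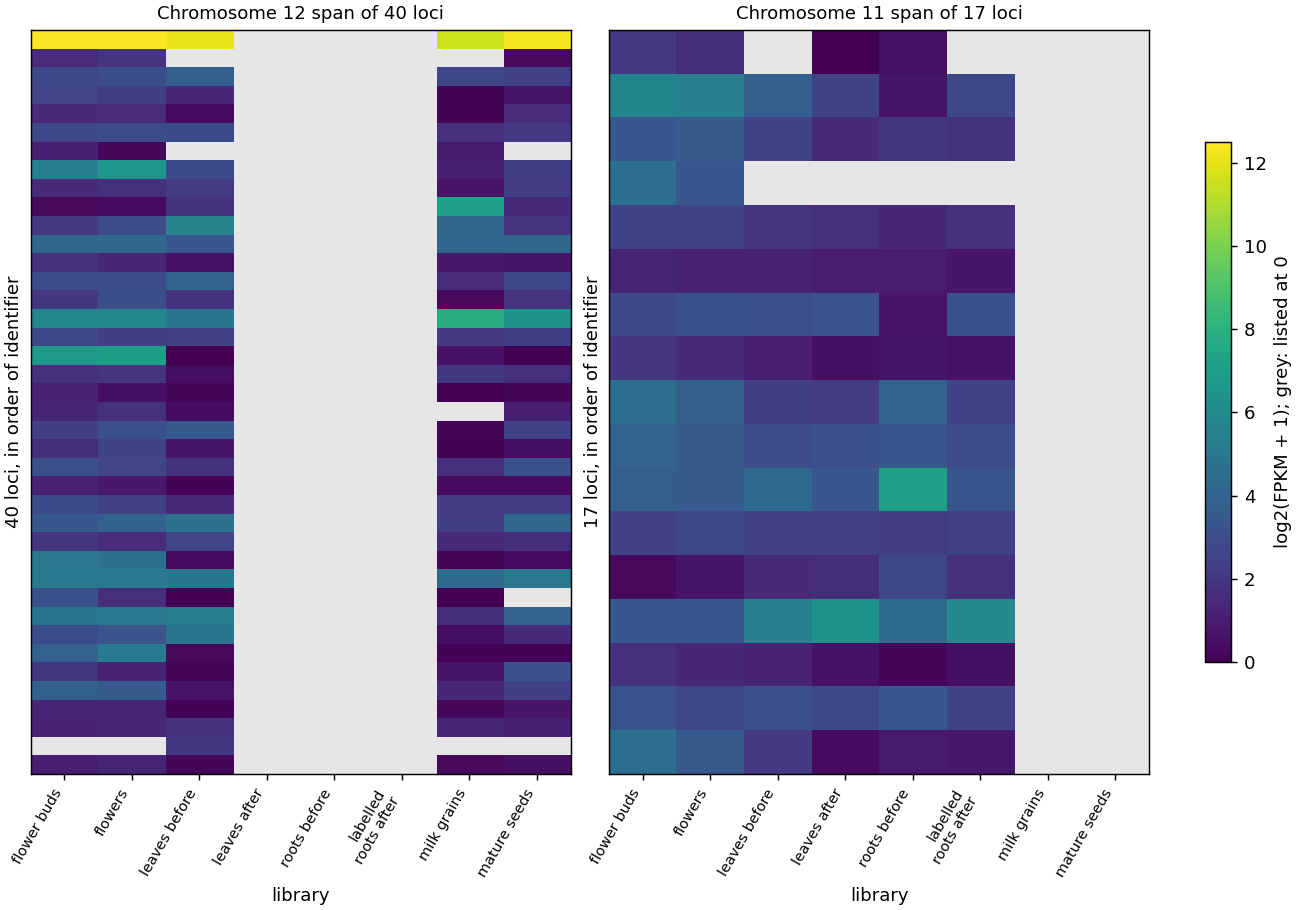
Level of each locus (rows, in order of identifier) in each of the 8 libraries (columns) for the chromosome 12 span of 40 loci and the chromosome 11 span of 17 loci, as log2(FPKM + 1), with values listed at 0 in grey. All 40 loci are at 0 in 3 libraries and all 17 loci are at 0 in 2, while 10 of 200 and 6 of 102 of the remaining values are 0.

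Crowded spans were long. Their length ran from 4.18 kb to 437.7 kb, with a median of 79.6 kb, against 3.32 kb for loci with a position of their own and 6.92 kb for positions of 2 loci. Spans of 5 to 7 loci had a median of 24.4 kb, and spans of 8 or more 168.7 kb. Of the 70 positions of at least 100 kb in the whole table, 67 were crowded, and all 34 positions of at least 200 kb were. Together the 154 spans covered 17.8 Mb.

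The spacing of listed loci differed with span length. The rule in part fixes this order, since a short span had to hold at least 5 loci to be crowded. The summed length divided by the loci was 10.1 kb per locus over all crowded spans, 10.7 kb in spans of 8 or more and 8.12 kb in spans of 5 to 7. The 12 chromosomes, from the first to the last listed position, held 1 listed locus per 12.0 kb. The 67 crowded spans of at least 100 kb held 1 per 12.2 kb when pooled, the 52 of 20 to 100 kb 1 per 7.53 kb and the 35 under 20 kb 1 per 2.22 kb. Pooled crowded spans were thus somewhat denser than the chromosomes, whose extent includes the gaps between positions, and those of at least 100 kb were not. By the summed length of positions alone, crowded spans were sparser. Their 10.1 kb per locus stood against 4.50 kb over all positions and 4.13 kb for loci with a position of their own. No crowded span overlapped another position. Each of the 12 chromosomes had between 7 and 19 crowded spans, and the share of its loci that were crowded ran from 3.40% on chromosome 4 to 8.54% on chromosome 12.

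**Figure D2:**
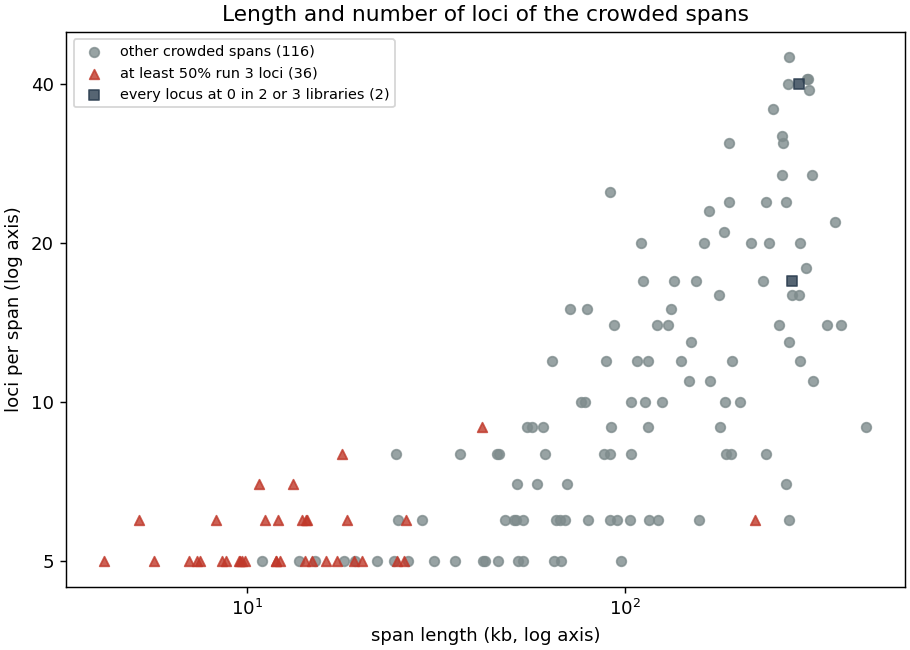
Length in kb (horizontal, log axis) and number of loci (vertical, log axis) of the 154 crowded spans, marked by whether at least 50% of the loci are of run 3 of the identifier numbers (36 spans) or every locus is at 0 in 2 or 3 libraries (2 spans). Spans of 8 or more loci have a median length of 168.7 kb, and the 36 spans rich in run 3 are short, with a median of 12.1 kb.

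The span with the most loci was chr2:35250492-35523358, with 45 loci over 272.9 kb. Its most abundant locus, XLOC_027515, had 139.4 FPKM in flower buds, 113.7 in flowers, 110.9 in earlier leaves, 137.5 in later leaves, 129.0 in earlier roots, 131.5 in the later library labelled roots, 135.7 in milk grains and 133.5 in mature seeds. That locus was thus nearly level across the organs, and it took 14.0% of the span's FPKM. Of the 45 loci, 24 had at least 1 FPKM in every library, and the locus peaks fell on the flower 14 times, the leaf 16 times, the root 6 times and the seed 9 times. The next spans, chr2:29934368-30238874 and chr1:39938752-40244736, held 41 loci each over 304.5 and 306.0 kb. They too held peaks of 4 organs.

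The longest spans were not the fullest. The longest, chr4:15416049-15853785, held 9 loci over 437.7 kb, with highest levels between 1.62 and 29.0 FPKM. Its locus XLOC_039285 had 9.27 FPKM in flower buds and 29.0 in flowers and under 0.1 FPKM elsewhere, whereas XLOC_039294 had between 5.67 and 18.6 FPKM in the 8 libraries. The second longest, chr3:19740432-20115834, held 14 loci over 375.4 kb, of which 2 had at least 1 FPKM in every library. The shortest span, chr2:16981476-16985654, held 5 loci in 4.18 kb.

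The identifier numbers fell into 3 runs. Within each of the 12 chromosomes the numbers of the loci went along the chromosome 3 times from one end to the other, and these passes are called runs 1, 2 and 3 in the order of the numbers. The table does not say what the runs stand for. Of the crowded loci, 779 were of run 1, 650 of run 2 and 329 of run 3, and both run 1 and run 2 were present in 120 of the 154 spans. Run 3 made up 18.7% of the crowded loci, against 12.3% of all loci. Its share was 42.1% in spans of 5 to 7 loci and 11.7% in spans of 8 or more. Spans under 20 kb were 73.2% run 3.

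Run 3 loci were low and narrow in expression. The median highest level of crowded loci was 12.7 FPKM in run 1, 13.1 in run 2 and 3.91 in run 3, and the shares with at least 1 FPKM in all 8 libraries were 44.4%, 42.0% and 16.7%. Over all loci of the table the medians were 14.1, 14.3 and 3.38 FPKM and the shares 46.5%, 46.8% and 12.3%. The difference between the runs was thus present in the whole table.

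The levels of crowded loci were close to those of the table. The median of the highest library was 10.1 FPKM, with quartiles of 3.36 and 31.4, against 11.9 FPKM, with quartiles of 3.77 and 34.4, over all loci. At least 100 FPKM in some library was reached by 148 crowded loci (8.42%, against 9.23% of all loci), and 595 stayed under 5 FPKM in every library (33.8%, against 30.5%). By library, the median of the crowded loci was 3.49 FPKM in flower buds, 3.56 in flowers, 3.42 in earlier leaves, 3.18 in later leaves, 2.11 in earlier roots, 2.86 in the later library labelled roots, 1.22 in milk grains and 2.49 in mature seeds. Over all loci the same medians were 4.52, 4.52, 3.30, 3.14, 2.95, 3.12, 1.70 and 3.34 FPKM. The crowded loci were thus lower than the table in the flower, earlier root and seed libraries and slightly higher in both leaf libraries. In the later library labelled roots they were lower with the 2 spans with whole-span zeros and, at 3.16 FPKM, slightly higher without them. Their share of the summed FPKM lay between 4.37% in earlier roots and 5.52% in earlier leaves. Positions of 2 loci also had medians below the table in flower buds (3.67 FPKM), flowers (3.85), earlier roots (2.52) and mature seeds (2.88). Their medians were above it in earlier leaves (3.67) and later leaves (3.48), so that order was not particular to crowded loci. At positions of 3 or 4 loci the median was below the table in every library.

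The loci of a span were uneven in level. The most abundant locus took a median of 46.5% of its span's FPKM, averaged over the libraries, and up to 93.3%, and it took at least 50% in 65 of the 154 spans. The share was 53.0% in spans of 5 to 7 loci and 38.3% in spans of 8 or more. The extreme was chr1:2658203-2704643, a span of 8 loci in which XLOC_003632 took 93.3%. That locus had 486 FPKM in flower buds, 399.96 in flowers, 343 in earlier leaves, 551 in later leaves, 386 in earlier roots, 826 in the later library labelled roots, 339.9 in mature seeds and 2743 in milk grains. Milk grains were the highest library, and mature seeds the lowest. Its neighbour XLOC_000231 had between 14.9 FPKM, in milk grains, and 34.8 FPKM, in mature seeds.

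Another such span was chr8:15822223-16079411, with 14 loci. Its locus XLOC_061649 took 92.3% of the FPKM and was the highest crowded locus in later leaves, with 1649 FPKM. It had 609 FPKM in earlier leaves, 1210.5 in the later library labelled roots, 28.5 in mature seeds, 3.96 in milk grains, 1.42 in earlier roots, 0.860 in flowers and 0.367 in flower buds. In the same span XLOC_061654 had 8.05 FPKM in earlier roots and at most 0.179 elsewhere, and XLOC_059459 had 11.8 FPKM in flower buds, 7.88 in flowers and under 0.1 FPKM elsewhere. A leaf-high locus, a root-high locus and a flower-high locus therefore lay in 1 span.

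Organ breadth was somewhat narrower than in the table, as it also was at positions of 3 or 4 loci. Of the crowded loci, 674 (38.3%) had at least 1 FPKM in all 8 libraries, against 13228 (42.4%) of all loci, and 226 (12.9%) did so in exactly 1 library, against 13.1%. The median was 6 libraries, against 7. Without the 2 spans with whole-span zeros, the share in all 8 libraries was 39.6%. At positions of 3 or 4 loci it was 35.4%, below that of the crowded loci, and at positions of 2 loci it was 43.0%. In 113 of the 154 spans there was both a locus in at most 2 libraries and a locus in all 8. This held for 39 of 73 spans of 5 to 7 loci and for 74 of 81 spans of 8 or more. The count thus went with the number of loci in a span and was not set against random sets of loci.

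Crowded loci peaked in the leaf more often than the loci of the whole table, and so did loci at other shared positions. The highest of the 7 libraries was a leaf library for 676 crowded loci (38.5%, against 29.8% of all loci), a flower library for 438 (24.9%, against 26.8%), a seed library for 420 (23.9%, against 27.5%) and the root library for 224 (12.7%, against 15.9%). Without the 2 spans with whole-span zeros these shares were 39.0%, 23.6%, 24.3% and 13.0%. Leaf peaks made up 42.4% at positions of 3 or 4 loci, 36.8% at positions of 2 loci and 25.6% of loci with a position of their own, so the leaf excess was not particular to crowded spans. The share of leaf peaks was 52.3% among the 329 run 3 loci and 35.3% among the 1429 others, against 37.9% and 28.6% over all loci of those runs. Most spans mixed organs: peaks of 4 organs were held by 58 spans, of 3 by 49, of 2 by 32 and of 1 by 15. All 15 spans with peaks of 1 organ had 5 to 7 loci, and 49 of the 58 with peaks of 4 organs had 8 or more. The mixing of organs thus also went with the number of loci in a span.

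Organ profiles agreed weakly within most crowded spans and more closely within many, but not all, short spans rich in run 3. Agreement was measured as the mean Pearson r over all pairs of loci of a span, on log2(FPKM + 1) over the 8 libraries. The points share their libraries, and each r rests on 8 values, so the coefficients are given as descriptions. The median over 154 spans was 0.173, with a range from -0.160 to 0.985. The mean r was at least 0.5 in 34 spans and below 0 in 20. In spans of 5 to 7 loci the median was 0.403, and in spans of 8 or more it was 0.0928. For spans under 20 kb it was 0.661, for spans of 20 to 100 kb 0.161 and for longer ones 0.0928.

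The 36 spans in which at least 50% of the loci were of run 3 had a median mean r of 0.656. Their mean r ran from -0.138 to 0.980, with 23 spans at 0.5 or above and 2 below 0. These 36 spans held 201 loci and had a median length of 12.1 kb, so length and run cannot be told apart here. Leaving out these 36 spans and the 2 with whole-span zeros, the other 116 spans had a median of 0.119, and 9 of them reached 0.5. Leaving out the run 3 loci gave a median of 0.111 over the spans that still held at least 2 loci. Spans left with fewer dropped out, so this value and 0.173 do not rest on the same spans. Both spans with whole-span zeros had a high mean r over 8 libraries, of 0.663 on chromosome 12 and 0.678 on chromosome 11. Over the 5 and 6 libraries in which their loci were not all at 0, it was 0.262 and 0.225.

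**Figure D3:**
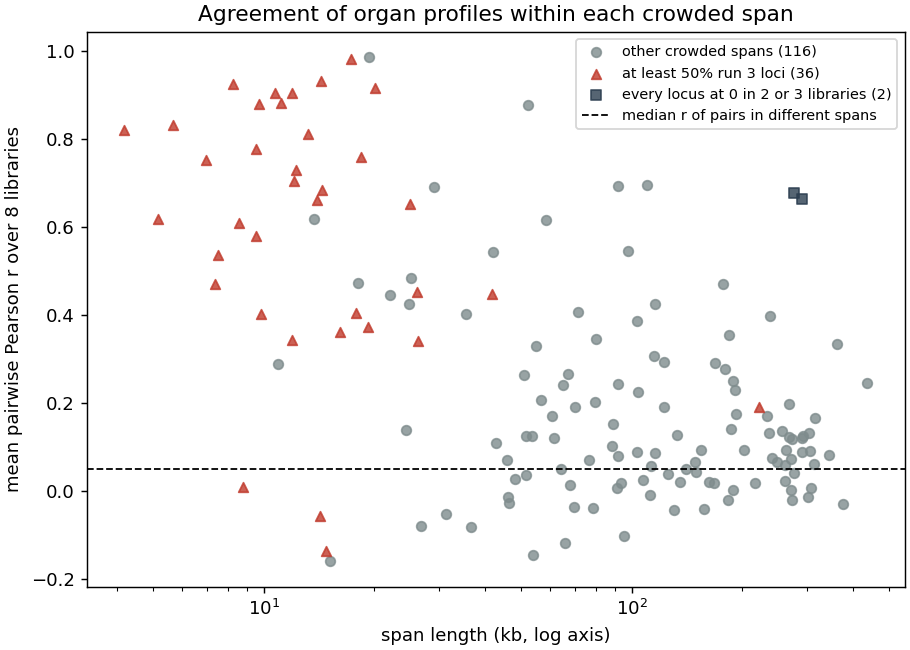
Mean pairwise Pearson r of organ profiles over 8 libraries (vertical) against span length in kb (horizontal, log axis) for the 154 crowded spans, with the median r of pairs in different spans as a dashed line at 0.0502. Spans under 20 kb have a median mean r of 0.661 and are mostly rich in run 3, and spans of at least 100 kb have a median of 0.0928.

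Among the 86 spans with at least 5 loci that reached 5 FPKM, the highest mean r was 0.930, in chr11:16435031-16449311. All 6 of its loci peaked in earlier roots, and 5 were of run 3. Its main locus XLOC_015617 had 0.0225 FPKM in flower buds, 0.123 in flowers, 0.861 in earlier leaves, 13.0 in later leaves, 36.5 in earlier roots, 6.44 in the later library labelled roots, 0.107 in milk grains and 0.473 in mature seeds. XLOC_016929 followed it at a lower level, with 0.810, 6.53, 15.4 and 1.94 FPKM in the leaf and root libraries in the same order and a listed 0 in the 4 flower and seed libraries. The other 4 loci had between 5.40 and 6.83 FPKM in earlier roots.

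The spans next in order peaked in leaves. In chr9:15982788-15991063 (mean r 0.924), all 6 loci peaked in a leaf library, and XLOC_067260 had 18.8 FPKM in earlier leaves, 75.2 in later leaves, 16.5 in earlier roots and 34.8 in the later library labelled roots. Its flower and seed libraries were at or under 3 FPKM. In chr6:5460961-5472082 (mean r 0.882), XLOC_050066 had 17.1, 54.8, 10.5 and 43.7 FPKM in those 4 libraries and at most 7.59 in the flower and seed libraries. Both spans held 1 locus of run 2 and 5 of run 3.

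The shortest span, chr2:16981476-16985654, also held loci that moved together, with a mean r of 0.820. In earlier roots its 5 loci had 81.0, 151, 10.6, 21.6 and 96.3 FPKM, the highest of the 8 libraries for each of them. The most abundant, XLOC_028071, had 62.2 FPKM in flower buds, 25.5 in flowers, 42.7 in earlier leaves, 47.9 in later leaves, 31.9 in the later library labelled roots, 30.6 in milk grains and 49.2 in mature seeds. The second shortest, chr1:6572022-6577171, had a mean r of 0.617 over 6 loci, and its most abundant locus XLOC_003956 had between 4.18 and 17.9 FPKM.

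The lowest mean r in this set was -0.145, in chr11:24170640-24224540, which held 5 loci of runs 1 and 2. XLOC_013979 had 322 FPKM in mature seeds and 169 in milk grains and was listed at 0 in the other 6 libraries. XLOC_013981 had 8.88 FPKM in flower buds and 18.9 in flowers and at most 0.335 elsewhere. XLOC_016190 had 223 FPKM in flower buds, 210.1 in flowers, 187 in earlier leaves, 196 in later leaves, 105.8 in earlier roots, 177 in the later library labelled roots, 119.97 in milk grains and 432.5 in mature seeds. A seed locus, a flower locus and a locus present in every library were thus neighbours within 53.9 kb.

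The next lowest were chr8:4352772-4448370 (mean r -0.103, 6 loci) and chr2:27346207-27476269 (mean r -0.0444, 14 loci). In the first, XLOC_058578 had 38.5 FPKM in earlier leaves, 63.7 in later leaves and 4.05 in earlier roots, while XLOC_060761 had 85.9 FPKM in earlier roots and between 20.5 and 36.6 in the other 7 libraries. In the second, XLOC_026904 had 101.3 FPKM in earlier leaves, 11.8 in earlier roots and 0.553 in milk grains. XLOC_026902 in the same span had 61.2 FPKM in earlier roots and 5.63 in earlier leaves. These neighbours were opposite in leaf and root.

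**Figure D4:**
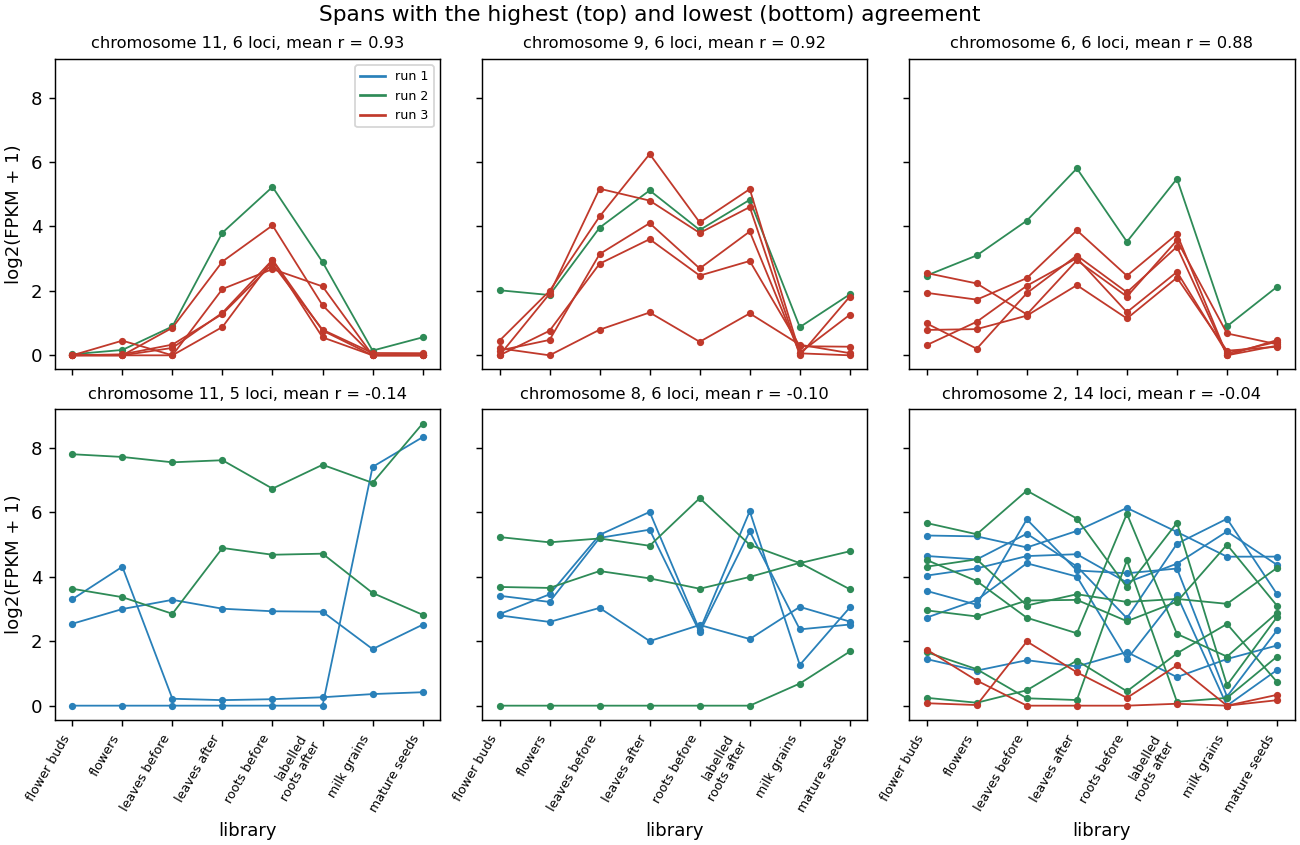
Level as log2(FPKM + 1) (vertical) in the 8 libraries (horizontal) for each locus of the spans with the highest (top) and lowest (bottom) mean pairwise r among the 86 spans with at least 5 loci of at least 5 FPKM, coloured by run of the identifier numbers. The top spans, with mean r between 0.882 and 0.930, hold 5 run 3 loci each that rise and fall together, and the bottom spans, between -0.145 and -0.0444, hold loci that peak in different organs.

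Pair by pair, loci of the same span were a little more alike than loci of different spans. The 15168 pairs within spans had a median r of 0.180, and the 1529235 pairs between spans had 0.0502. An r of at least 0.9 was found for 5.72% of the former and 1.88% of the latter, and an r below 0 for 39.3% and 46.9%. The peak organ was the same in 32.3% of pairs within spans and 28.2% of pairs between spans. Without the 2 spans with whole-span zeros, the median within spans was 0.137. Of the pairs within spans, 14237 lay in spans of 8 or more loci, which include both spans with whole-span zeros, and had a median r of 0.160. The 931 pairs in spans of 5 to 7 loci had 0.548. After median-of-ratios scaling the median between spans was -0.012, so the sign of that value depended on the scaling.

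The likeness within spans was strongest between run 3 neighbours. Pairs of run 3 loci within a span had a median r of 0.610, pairs of run 1 loci 0.130 and pairs of run 2 loci 0.228. Pairs of a run 1 and a run 2 locus had 0.179. Among run 3 loci the median was 0.795 for the 178 pairs with consecutive numbers, 0.620 at a gap of 2 or 3 and 0.365 at a gap of 4 to 7. Within runs 1 and 2 it was 0.266 for the 762 consecutive pairs and 0.157 at a gap of 8 or more. These medians within spans include the 2 spans with whole-span zeros and were not worked out without them. Run 3 loci of different spans had 0.121.

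Loci outside the crowded spans showed a like order. Consecutive loci of runs 1 and 2 with positions of their own had a median r of 0.166 over 8898 pairs, and those of run 3 had 0.522 over 223 pairs. The 3200 pairs of loci that shared a position between them had 0.588. Pairs within crowded spans of 5 to 7 loci were near that, at 0.548. Those within spans of 8 or more, with whole-span zeros included, were lower, at 0.160.

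The pairs with extreme r among loci of at least 20 FPKM were the following. XLOC_003245 and XLOC_003247, in a span of 27 loci on chromosome 1, had r = 0.9997, with 61.8 and 61.1 FPKM in flower buds, 64.2 and 64.6 in flowers, 64.1 and 64.3 in earlier leaves, 69.3 and 69.6 in later leaves, 27.0 and 26.9 in earlier roots, 62.6 and 63.3 in the later library labelled roots, 26.4 and 25.6 in milk grains and 51.6 and 51.4 in mature seeds. These were nearly equal levels as well as parallel ones. XLOC_025381 and XLOC_025384 (r = 0.999), on chromosome 2, had 37.4 and 23.3 FPKM in later leaves and at most 0.460 and 0.304 FPKM in the flower, seed and earlier root libraries. The lowest pairs lay in chr9:17742545-18050946, a span of 39 loci with a mean r of 0.00573. There XLOC_064647 had 28.5 FPKM in flower buds and 0.149 in later leaves, while XLOC_066403 had 3.20 and 85.0 (r = -0.987) and XLOC_064639 had 31.5 and 413.7 (r = -0.982).

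Besides the 2 spans with whole-span zeros, 2 spans of 8 or more loci had a mean r of at least 0.5, and they are described here as chosen after their values were seen. They were chr10:10801770-10893384, with 25 loci and a mean r of 0.694, and chr4:9093508-9203946, with 20 loci and a mean r of 0.695. Neither held a run 3 locus. In the first, 19 of 25 loci peaked in a leaf library, and in the second 18 of 20. The median level of the loci on chromosome 10 was 0.533 FPKM in flower buds, 0.834 in flowers, 3.48 in earlier leaves, 1.87 in later leaves, 0.154 in earlier roots, 1.37 in the later library labelled roots, 1.01 in milk grains and 0.444 in mature seeds. On chromosome 4 the medians in the same order were 1.06, 1.26, 3.09, 1.56, 0.106, 1.52, 0.741 and 0.413 FPKM. Earlier leaves were highest and earlier roots lowest in both spans.

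Some loci of these 2 spans had nearly the same values although they lie on different chromosomes. XLOC_008886 on chromosome 10 had 0.303 FPKM in flower buds, 0.490 in flowers and 2.28 in earlier leaves, and XLOC_038815 on chromosome 4 had 0.303, 0.490 and 2.28. XLOC_008885 and XLOC_038816 were likewise at 0.347 and 0.346 FPKM in flower buds and 1.91 and 1.91 in earlier leaves. Of the 1418 crowded loci above 0 in every library, 28 (1.97%) had a partner somewhere in the table whose value was within 10% of their own in all 8 libraries. Of these 28 loci, 8 were among the 20 loci of the chromosome 4 span, 2 among the 25 of the chromosome 10 span and 4 among the 8 of chr7:14118020-14304165, a span set apart here after its values were seen. The other 14 were among 1365 loci (1.03%). The same share over all loci of the table was not worked out, so whether these shares are high for crowded loci cannot be said. Whether such loci are near-identical copies that share reads was not tested, so their levels and profiles are uncertain.

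Zeros at loci that were high elsewhere were more common than in the table both in crowded loci and at positions of 3 or 4 loci. Of 884 crowded loci with at least 10 FPKM in some library, 97 (11.0%) were listed at 0 in another, in 51 spans, against 1020 of 16859 (6.05%) over all loci. The 2 spans with whole-span zeros held 25 of the 97, and elsewhere the count was 72 of 859 (8.38%). By span size it was 29 of 190 (15.3%) in spans of 5 to 7 loci and 68 of 694 (9.80%) in spans of 8 or more. Both spans with whole-span zeros are among the spans of 8 or more, so the excess elsewhere lay more in the smaller spans. At positions of 3 or 4 loci it was 77 of 877 (8.78%). At least 100 FPKM in some library was reached by 15 of the 97. As an example chosen after its values were seen, XLOC_057927, a run 3 locus in a span of 6 loci on chromosome 7, had between 100.3 and 600.5 FPKM in 7 libraries and was listed at 0 in mature seeds.

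Stage and organ comparisons asked whether the crowded loci changed more or less often than the table. The rule for a difference asked for a 4-fold ratio of FPKM + 1, which is 2 on the log2 scale, with 5 FPKM or more in the library where the locus was higher. Ratios on this scale understate the change of low loci. Loci under 5 FPKM in both libraries were left out of the comparison.

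Flowers differed from flower buds at 12 of 818 crowded loci (1.47%), with 7 higher and 5 lower, where 1.17 percent of all compared loci were called (0.73 percent higher and 0.436 percent lower). The share was thus near that of the table. The highest ratio was that of XLOC_054009 (chr7:14118020-14304165), which went from 0.0968 FPKM in flower buds to 41.9 in flowers (log2 ratio 5.29). Its level in earlier roots was 810.5 FPKM, and it took 90.8% of its span's FPKM. XLOC_004640 had 14.2 and 103.5 FPKM (log2 ratio 2.78). On the lower side, XLOC_049426 fell from 54.0 to 10.1 FPKM (-2.31) and XLOC_012266 from 205.4 to 43.1 (-2.23).

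Later leaves differed from earlier leaves at 77 of 853 crowded loci (9.03%), with 35 higher and 42 lower, against 6.38 percent of all compared loci (3.88 percent higher and 2.5 percent lower). Of the 42 lower loci, 14 were in the chromosome 12 span that was listed at 0 throughout later leaves. Without the 2 spans with whole-span zeros, 63 of 833 loci were called (7.56%), with 35 higher and 28 lower, so the balance of directions rested on that span. XLOC_014280 had 26.8 FPKM before and 365.4 after flowering (log2 ratio 3.72), and XLOC_001225 had 12.9 and 178.6 (3.70). In the later library labelled roots they had 179 and 207.9 FPKM. XLOC_002964 had 29.97 FPKM before and 0.288 after flowering (-4.59), and XLOC_004715 had 248.7 and 14.8 (-3.98).

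The later library labelled roots differed from earlier roots at 259 of 866 crowded loci (29.9%), with 144 higher and 115 lower, against 30.0 percent of all compared loci (14.1 percent higher and 16.0 percent lower). Leaving out both spans with whole-span zeros, 257 of 858 were called. With median-of-ratios scaling the counts were 119 higher and 132 lower, so the direction in excess depended on the scaling. That scaling moved the median log2 ratio of all compared loci from 0.24 to -0.15. XLOC_061649, described above, had the highest ratio (8.97), followed by XLOC_019028 (7.99), with 1.48 FPKM in earlier roots and 631 in the later library labelled roots. The lowest ratio was that of XLOC_019038 (-9.52), with 1020.8 and 0.396 FPKM, and XLOC_054009 followed (-8.50), with 810.5 and 1.24. XLOC_019028 and XLOC_019038 lie in the same span, chr12:23382983-23518497, and moved in opposite directions. Since the later library was close to later leaves, whether these ratios describe a change of roots cannot be told apart from a difference between organs.

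Mature seeds differed from milk grains at 184 of 735 crowded loci (25.0%), with 140 higher and 44 lower, against 26.0 percent of all compared loci (18.6 percent higher and 7.38 percent lower). With both spans with whole-span zeros left out, 180 of 723 were called. The share of higher loci among those called was 76.1%, and it was 63.6% with upper-quartile scaling, at 124 higher and 71 lower. That scaling moved the median log2 ratio of all compared loci from 0.43 to -0.03. XLOC_027119 rose from 3.23 to 289.0 FPKM (log2 ratio 6.10) and XLOC_043999 from 0.540 to 102.1 (6.06). Both had at most 0.0568 FPKM in the other 6 libraries. XLOC_043477 fell from 50.5 to 0.0522 FPKM (-5.61). XLOC_019316, in the chromosome 12 span with whole-span zeros, fell from 140.8 to 1.93 FPKM (-5.59).

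Leaves and earlier roots, which shared a stage, differed at 301 of 906 crowded loci (33.2%), with 189 higher in leaves and 112 lower, against 31.0 percent of all compared loci (14.8 percent higher and 16.2 percent lower). Crowded loci were thus called higher in leaves more often than lower, unlike the table. Of the 301, 16 higher and 1 lower were in the 2 spans with whole-span zeros, and without those spans 284 of 884 (32.1%) were called, with 173 higher and 111 lower. With median-of-ratios scaling the counts were 160 and 131. The highest ratios were those of XLOC_061649 (7.98) and XLOC_019028 (7.96) and the lowest those of XLOC_019038 (-9.24) and XLOC_054009 (-7.94), which repeat the loci named for the pair labelled roots because earlier roots are in both comparisons.

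**Figure D5:**
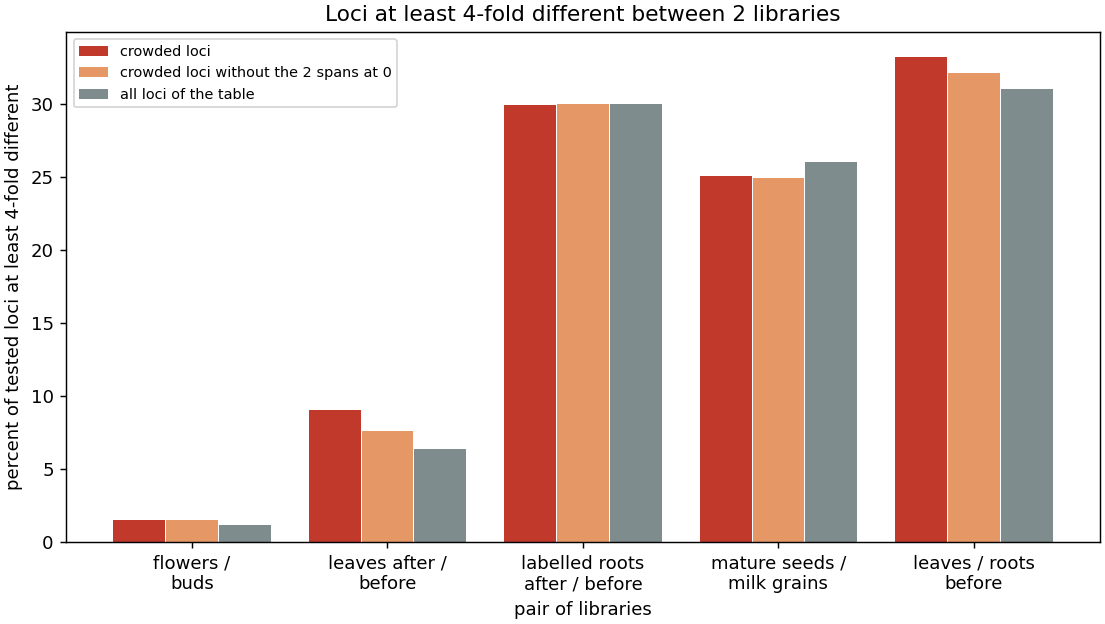
Percent of compared loci at least 4-fold different between 2 libraries (vertical, bars from 0) for 5 pairs of libraries, for crowded loci, for crowded loci without the 2 spans at 0 throughout a library, and for all loci of the table. Crowded loci lie close to the table in each pair, and the largest gap, 9.03% against 6.38% for leaves, shrinks to 7.56% without those 2 spans.

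Called loci of a span moved in the same direction in some spans and in opposite directions in others. How many mixed spans unrelated directions would give was not worked out, so the counts show neither opposition nor agreement. Of the spans with at least 2 called loci, 32 of 62 had calls in both directions for the pair labelled roots, 31 of 70 for earlier leaves against earlier roots, 20 of 49 for the seed pair, 3 of 16 for the leaf pair and 0 of 2 for the flower pair. The span with the most calls for the pair labelled roots was chr9:17742545-18050946, with 12. For the leaf pair it was the chromosome 12 span with whole-span zeros, with 14.

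Organ-enriched loci were as common among crowded loci as in the table. Enrichment asked for 10 FPKM or more in some library of the organ and for a level 5 or more times that of any other organ after adding 1 FPKM to each, over the 7 libraries. Of 878 crowded loci with at least 10 FPKM, 165 (18.8%) were enriched, against 18.8 percent over the table. By organ, 42 were enriched in the flower (4.78%, against 4.59 percent), 41 in the leaf (4.67%, against 3.25 percent), 31 in the root (3.53%, against 5.48 percent) and 51 in the seed (5.81%, against 5.5 percent). When both spans with whole-span zeros were left out, 157 of 853 (18.4%) were enriched, with 36 flower loci (4.22%), 41 leaf loci, 30 root loci and 50 seed loci, so the flower share moved from above to below that of the table. The 165 loci lay in 82 spans. No enriched locus was found in 72 spans, 1 in 35 and at least 2 in 47, and in 18 of these 47 they were enriched in the same organ. What unrelated loci in spans of these sizes would give was not worked out.

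The most enriched crowded locus of the flower was XLOC_009716 on chromosome 10, with 708 FPKM in flower buds and 744 in flowers, whereas its next organ, the seed, had 4.96 FPKM in milk grains. For the leaf it was XLOC_014280, named above, whose highest value in the other organs was 0.688 FPKM, in milk grains. For the root it was XLOC_019038, whose 1020.8 FPKM were set against 2.41 in flower buds, a ratio of 299 with 1 FPKM added. For the seed it was XLOC_064012 on chromosome 9, which reached 659 FPKM in milk grains but 66.9 in mature seeds. Its level was 0.00809 FPKM in flowers and a listed 0 in the other 5 libraries.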

How the data were processed

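The authors deposited 1 FPKM value per locus and library. The submitters' processing notes name TopHat, Cufflinks and Cuffdiff, whose versions and order of use are not given here. Positions follow Release 7 of the MSU Rice Genome Annotation Project, per the file headers. The lowest row maximum was 1.00001 FPKM, so loci below 1 FPKM in every library are not analysed here. Loci were grouped by identical position. Profiles were compared on log2(FPKM + 1). Runs were split where the start position fell back by more than 0.5 of the chromosome's extent. With 1 library per group, no test was possible, and folds and counts are given beside those over all loci.

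Spans were named for the most loci, greatest and smallest length, highest and lowest mean r, and highest summed FPKM. Loci were named for the highest level in a library, the 2 highest and 2 lowest ratios of each comparison among loci that reached 20 FPKM in either library and were above 0 in both, extreme pair r, and the highest enrichment per organ. Members, lists and rules were chosen with earlier results of these data known. Identifiers of 0 of 1758 loci matched the RefSeq gene table. Python 3.11.15, pandas 2.3.3, numpy 2.4.6 and scipy 1.17.1 were used, and the code was tested on simulated data. Alternatives were other span sizes, FPKM limits, pseudocounts, folds, scalings and sets of libraries.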

Additional observations from a re-analysis of the deposited data

Results flagged for a closer look

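After flowering, 3 crowded loci were at least 4-fold higher in leaves and at least 4-fold lower in the later library labelled roots, while 3 others fell in leaves and were higher in that library. These opposite directions are the reason for listing them. With 1 library per group, that contrast between leaf and root pairs was not tested. In the first set, XLOC_015617 had 0.861 and 13.0 FPKM in leaves before and after flowering and 36.5 and 6.44 in the pair labelled roots. XLOC_016929, in the same span on chromosome 11, had 0.810 and 6.53 FPKM in leaves and 15.4 and 1.94 in the pair labelled roots. XLOC_064663, on chromosome 9, had 1.58 and 11.6 FPKM, and 99.3 and 16.0. In each of these the 2 later libraries lay between the 2 earlier ones.

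In the second set, XLOC_046283 had 257.9 and 48.4 FPKM in leaves and 2.61 and 59.6 in the pair labelled roots. XLOC_047150, in the same span of 31 loci on chromosome 5, had 82.9 FPKM in leaves before flowering and 15.5 in the later library labelled roots, and it was listed at 0 in leaves after flowering and in roots before flowering. XLOC_049029, on chromosome 6, had 246.8 and 34.9 FPKM in leaves and 8.77 and 47.8 in the pair labelled roots. The later library labelled roots was close to leaves after flowering over all crowded loci (r = 0.984), and its part in these values was not tested.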

How the results depend on the processing

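Of 82 alternative values, 53 kept within the limit set for each, 28 moved and 1 changed sign. The limit for a count was 1.5 times. Within it, the smaller set of spans of at least 8 loci gave, for example, 68 zeros in place of 97. It also gave 75 spans with 3 or more peak organs in place of 107. For a median or a share the limit was a 95% interval over loci, spans or pairs, which are not independent. For the median r between spans that interval was narrow, from 0.0489 to 0.0515, so small shifts counted as moved. For the values that moved, the cause was not tested beyond the construction named. Spans of at least 8 or at least 4 loci gave a median length of 168734 or 25119 bp in place of 79643, a median mean r of 0.0928 or 0.302 in place of 0.173, and a share of the top locus of 38.3% or 53.3% in place of 46.5%. With at least 4 loci, the median highest level was 9.03 FPKM and the median r between spans 0.0417. Only loci with at least 5 FPKM gave 20.4 FPKM, 55.3% in all 8 libraries and 0.0655 between spans. Counting from 0.5 or 5 FPKM gave 45.5% or 18.7% in all 8 libraries. The median mean r was 0.111 with median-of-ratios scaling, 0.123 with centred libraries and 0.111 without run 3, an alternative chosen after seeing the data. Without run 3, spans left with 1 locus dropped out. The median r between spans was -0.012 with median-of-ratios scaling, 0.00101 with centred libraries, 0.0627 without the later library labelled roots, 0.0761 with a pseudocount of 0.1, 0.0714 with Spearman's rho and 0.048 without run 3. Zeros numbered 26 when 50 FPKM elsewhere was asked, and enriched loci 109 at 10 times. At 8-fold, 2, 27, 137, 73 and 165 loci were called in the 5 comparisons in the order of the report. No paired analysis was possible because each group held 1 library. Depth is unknown, so the precision of low values cannot be given.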

Other observations

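Some crowded spans held several loci enriched in 1 organ. Of these, 7 spans had 3 such loci of a single organ and 1, the chromosome 12 span with whole-span zeros, had 4 of the flower. How many such spans unrelated loci would give was not worked out, so the counts do not show clustering by organ. The examples here were chosen after their values were seen. In chr10:2337136-2440427, 3 of 6 loci were seed-enriched. XLOC_008216, XLOC_008217 and XLOC_010048 had 15.5, 21.6 and 13.8 FPKM in mature seeds and 0.0553, 0.591 and 0.442 FPKM in milk grains. All 3 had at most 0.00775 FPKM in the other 6 libraries. In chr4:26299112-26482366, 3 of 21 loci were seed-enriched. XLOC_040074 went from 169 FPKM in milk grains to 362.5 in mature seeds, XLOC_037355 had 17.7 and 28.8, and XLOC_040079 had 0.534 and 40.6. The spans chr1:16565532-16910193 and chr3:19740432-20115834 each held 3 seed-enriched loci of 14, with up to 235.8 FPKM in mature seeds for XLOC_004706 in the first and up to 75.4 FPKM in milk grains for XLOC_030263 in the second.

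In chr1:41741159-41856462, 3 of 12 loci were root-enriched, with consecutive identifiers. In earlier roots XLOC_003269 had 221 FPKM, XLOC_003270 had 67.6 and XLOC_003271 had 38.6. In the later library labelled roots they had 15.1, 0.176 and 0.111 FPKM. In chr12:23382983-23518497, the span of XLOC_019038, XLOC_021108 had 88.3 FPKM and XLOC_019037 had 38.2 FPKM in earlier roots, and both had at most 1.63 FPKM elsewhere. The same span held a seed-enriched locus, XLOC_019022, with 29.8 FPKM in mature seeds. In chr2:7144354-7292663, XLOC_025388 had 102.8 FPKM in the earlier and 428.0 in the later leaf library, beside the pair XLOC_025381 and XLOC_025384 of the report. That span also held XLOC_025392, enriched in the flower with 11.6 FPKM in flowers, and XLOC_027780, with 18.3 FPKM in earlier roots and a listed 0 in the other 7 libraries.

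Near-equal loci were also looked for among crowded loci with at least 1 FPKM in all 8 libraries. Values within 10% of each other in all 8 libraries were found in 3 of 2884 pairs within spans and in 0 of 223917 pairs between spans. The pairs were XLOC_003245 with XLOC_003247, XLOC_047539 with XLOC_047546, and XLOC_058605 with XLOC_060801. Among the 1418 crowded loci above 0 in every library, such values were found in 4 of 10398 pairs within spans and in 6 of 994255 pairs between spans. The 0 between spans thus depended on the limit of 1 FPKM. No test was made on these counts.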
